A study of Homo sapiens with 36 samples.

Results

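This report describes 9 interleukin and colony-stimulating factor genes in A549 cells exposed to cigarette smoke extract (CSE). The genes were IL1A, IL1B, IL6, IL11, IL18, IL33, LIF, CSF1 and CSF2. They were chosen by name and read from transcript clusters, the gene-level units of the array, that carry that single symbol. Of the 9 genes, 8 had such a cluster, 1 each, among 18417 genes that could be named in this way; CSF2 had none and is not analysed here. The clusters were 8054712 (IL1A), 8054722 (IL1B), 8131803 (IL6), 8039484 (IL11), 7951686 (IL18), 8154295 (IL33), 8075310 (LIF) and 7903786 (CSF1). A549 is a line grown from a human lung adenocarcinoma and is widely used as a model of the alveolar type II cell. The cells were left without serum for a day and then kept in medium with 1% of fetal bovine serum, either without CSE (control) or with CSE at 1%, 5% or 10%, which was renewed daily. Cultures were maintained for 1 week, or subcultured weekly up to 3 or 5 weeks. This gave 12 groups of 3 arrays, and 36 arrays in all. The study speaks of independent experiments, all on this single cell line, and the p-values rest on the spread within groups of 3 arrays. RNA of whole cultures was measured, so a change in RNA per cell and a change in the share of cells that make it cannot be told apart, and no protein was measured here.

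Interleukins and colony-stimulating factors are secreted signals by which injured epithelium calls in and instructs immune cells. IL1A, IL1B, IL18 and IL33 belong to the interleukin-1 (IL-1) family. IL1A and IL33 lie ready inside epithelial cells and act as alarm signals when cells are damaged, while IL1B and IL18 are made as inactive precursors that caspase-1 cuts in the inflammasome. IL6, IL11 and LIF signal through receptors that share the gp130 chain, the product of IL6ST, and switch on JAK kinases and STAT3. CSF1 is the growth and survival factor of macrophages, and CSF2 that of granulocytes and macrophages, including those of the alveoli. Cytokine messages are short-lived, and proteins such as ZFP36 bring about their decay.

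The labelled cell type was checked first. All 7 epithelial markers were among the brightest 60% of clusters, and KRT8, a keratin of simple epithelia, lay between 12.99 and 13.62 (log2 level) on all arrays. Of 8 measured alveolar type II markers, 3 were among the brightest 60%. SFTPC, the surfactant protein that defines the type II cell, and NKX2-1, its lineage factor, were not, with levels from 5.84 to 6.70 and from 5.29 to 6.02. PTPRC, the common leukocyte antigen, lay between 3.63 and 4.64. Of the leukocyte markers 2 of 7 were among the brightest 60%, of the fibroblast markers 4 of 7 and of the endothelial markers 0 of 4. The mean level of the epithelial markers was 10.42 to 10.51 on the arrays with CSE 5% at 5 weeks, 10.81 to 10.91 in the controls of that time and 10.91 to 10.96 in those of 1 week. That of the fibroblast markers was 5.62 to 5.71 with CSE 5% at 5 weeks and 5.88 to 6.14 in the controls of that time. It was 5.74 to 5.84 in the controls of 1 week. In those of 3 weeks it was 5.65 to 5.73, which overlaps the exposed arrays. The part of these differences in the results was not tested. The 3 control arrays of 5 weeks differed from all others. The spread of their log2 values was smaller (standard deviation 2.15 to 2.21, and 2.25 to 2.31 on the remaining 33 arrays). They also lay at one end of the first principal component, at -111 to -74.6, where the rest ranged from -61.2 to 47.1. Their labels also conflict: titles and short codes say 5 weeks, descriptions say 3 weeks, and so do the source names of replicates 1 and 2. Against the 3-week controls, 53.5% of all transcript clusters passed the test in these arrays, compared with 11.5% for 3 weeks against 1 week. For this reason the changes of the measured genes at 5 weeks are given a second time against the 6 control arrays of weeks 1 and 3. In that second comparison time in culture differs together with exposure, and the 2 cannot be told apart.

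RefSeq promoter sequences (GRCh38.p14) were at hand for 6 of the 9 genes: IL1A, IL1B, IL6, IL11, IL33 and CSF2. The 250 bases before the start of 3 of them are shown, because these genes differed in their response: IL1A rose with CSE at every time, IL6 did not pass the test at any, and IL11 was lower at 5 weeks. Capitals mark matches on either strand to the AP-1 motif (TGANTCA), the core of the xenobiotic response element (GCGTG), the core of the cAMP response element (TGACG) and the NF-kB motif. No capitals of different motifs overlap. IL1A is on the minus strand of chromosome 2 (chr2:112784494-112784743), IL6 on the plus strand of chromosome 7 (chr7:22726950-22727199) and IL11 on the minus strand of chromosome 19 (chr19:55370464-55370713).
IL1A: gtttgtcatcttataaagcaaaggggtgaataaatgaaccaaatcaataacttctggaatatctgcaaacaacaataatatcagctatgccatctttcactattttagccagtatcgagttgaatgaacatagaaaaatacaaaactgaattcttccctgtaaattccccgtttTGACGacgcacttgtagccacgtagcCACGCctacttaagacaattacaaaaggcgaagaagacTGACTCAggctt
IL6: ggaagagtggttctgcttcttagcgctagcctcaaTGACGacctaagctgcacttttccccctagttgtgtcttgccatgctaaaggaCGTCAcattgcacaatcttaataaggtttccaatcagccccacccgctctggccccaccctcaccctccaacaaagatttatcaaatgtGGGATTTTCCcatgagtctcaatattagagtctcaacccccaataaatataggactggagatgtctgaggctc
IL11: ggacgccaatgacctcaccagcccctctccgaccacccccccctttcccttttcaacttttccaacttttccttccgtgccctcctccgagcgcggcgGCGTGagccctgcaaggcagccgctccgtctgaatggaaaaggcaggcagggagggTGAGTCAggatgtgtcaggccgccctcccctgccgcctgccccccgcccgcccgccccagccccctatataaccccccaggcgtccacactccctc
RefSeq holds a further start for IL1A, whose 250-base window (chr2:112784401-112784650) overlaps the one shown and holds 2 AP-1 matches, TGACTCA and TGAGTCA. The IL1A window shown held 1 match each to AP-1 (TGACTCA), to the cAMP element core and, on the opposite strand, to the xenobiotic element core. That of IL6 held the NF-kB match and 2 of the cAMP element core. IL11 had 1 match to AP-1 (TGAGTCA) and 1 to the xenobiotic element core. Over 35116 RefSeq promoter windows of the same length, 6.57% held the AP-1 motif, 9.96% the NF-kB motif, 32.2% the xenobiotic core and 21.2% the cAMP core. The AP-1 match was thus shared by a gene that rose and one that did not rise, and these matches are a description of letters only.

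Levels are log2 values after RMA, the authors' normalization, so a difference of 1 stands for a doubling of signal. Levels of different genes come from different probes and were not compared. IL1A and CSF1 rose along with the exposure, IL18 was higher and IL11 lower at 5 weeks with the control of that week, where the control arrays of both genes also differed from earlier ones. IL1B passed the test at each time, down at 1 week and up later, LIF passed at 3 weeks, and IL6 and IL33 passed no test against control. The plot of levels by array shows these forms side by side.

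**Figure D1:**
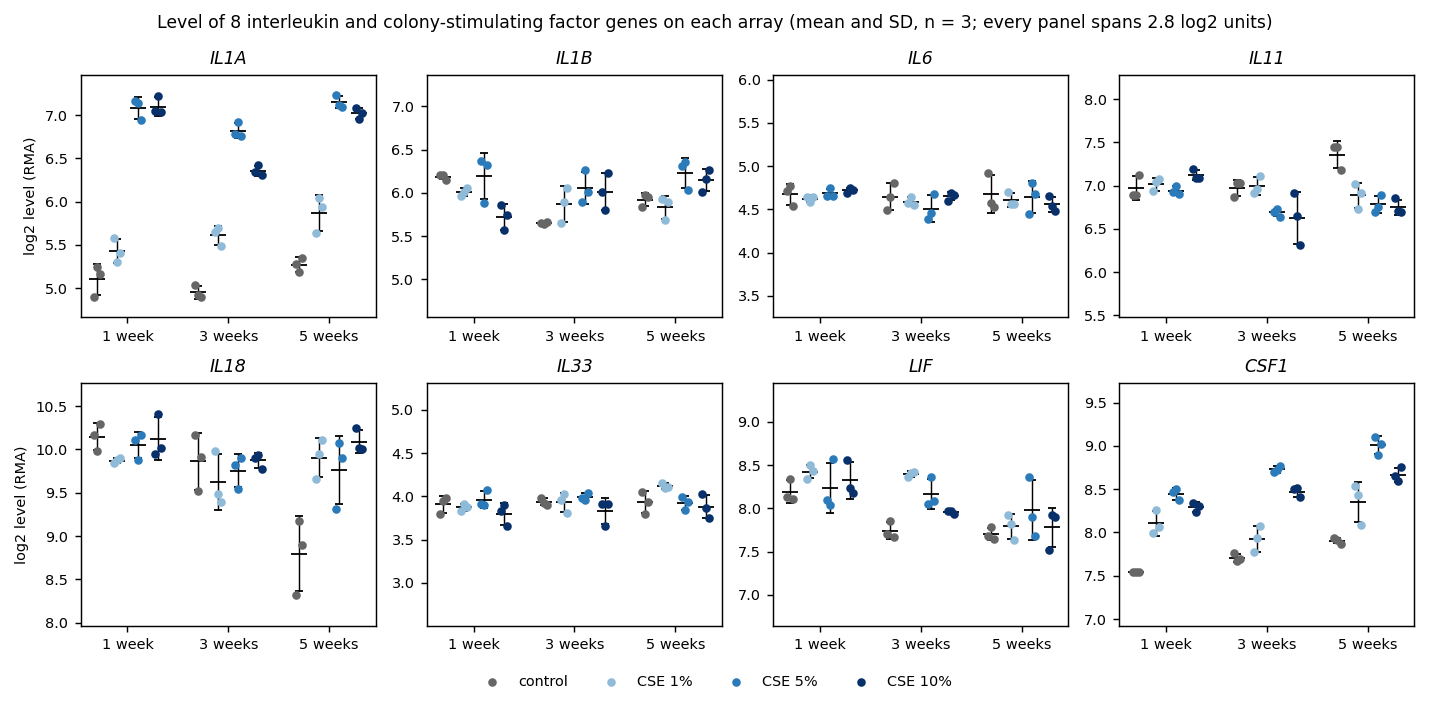
Level of each measured gene (log2, RMA) on each of 36 arrays, by week and by exposure (control in grey, CSE 1%, 5% and 10% in deepening blue). Points are arrays, and black marks are the mean and SD of 3 arrays. IL1A and CSF1 lay above control with CSE 5% and 10% at all 3 times, whereas IL18 at 5 weeks differed in the control arrays, which lay between 8.32 and 9.17.

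The first question was which of the genes differed from unexposed cells at each time. A gene is said to have risen or fallen where limma's adjusted p (Benjamini-Hochberg, over all 33297 transcript clusters) was under 0.05. At 1 week 2 of the 8 genes changed with CSE 1%, 2 with CSE 5% and 3 with CSE 10%, where 5.31%, 10.8% and 16.7% of all clusters were called. At 3 weeks 2, 4 and 4 genes changed, against 11.5%, 19.6% and 26.5% of all clusters. At 5 weeks the counts were 4, 5 and 4, but there 53.7%, 63.3% and 61.5% of all clusters were called, so that 4 or 5 of 8 genes is near the background. With the controls of weeks 1 and 3 in their place the counts were 2, 3 and 2, with 15.3%, 26.1% and 31.0% of all clusters called. The rule of the study, a log2 fold change beyond 1 with B above 0, was also counted. With CSE 1% it called 0, 0 and 1 of the genes at the 3 times in turn, where it called 0.324%, 0.748% and 4.02% of all clusters. With CSE 5% it called 1, 2 and 2 genes (0.895%, 1.74% and 9.15%), and with CSE 10% it called 1, 1 and 2 (1.52%, 2.50% and 9.08%). IL1A met this rule with CSE 5% and 10% at every time. CSF1 met it with CSE 5% at 3 and 5 weeks, and IL18 with CSE 1% and 10% at 5 weeks. With the earlier controls this rule called 0, 2 and 2 genes at 5 weeks, where it called 0.811%, 1.93% and 2.08% of all clusters. These were IL1A and CSF1 with CSE 5% and again with CSE 10%, and IL18 was not among them. The median change of all clusters was between -0.04 and 0.01 at 1 and 3 weeks and between -0.17 and -0.14 at 5 weeks.

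**Figure D2:**
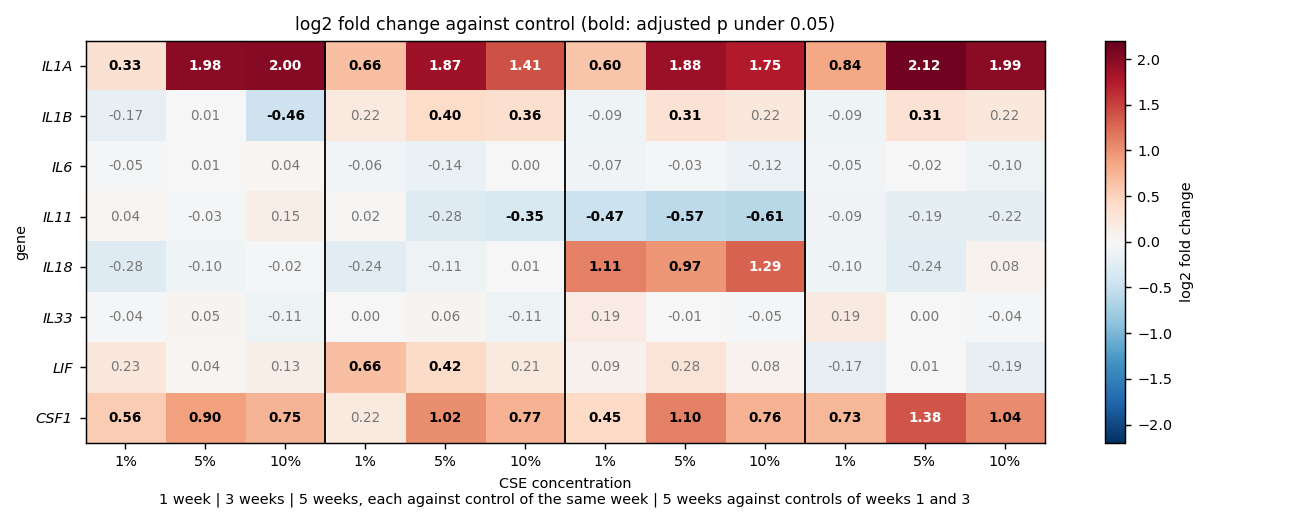
log2 fold change against control for 8 genes (rows) and 12 comparisons (columns: CSE 1%, 5% and 10% by week, each beside its own control, then the 5-week exposures beside the 6 controls of weeks 1 and 3). Bold values passed the test. IL1A is red throughout, with its highest value of 2.12 in the last block, and the red of IL18 at 5 weeks is absent from that block.

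IL1A, an IL-1 family alarm signal, had the widest range of the 8 genes: its group means spanned 2.20 log2 units. At 1 week the control arrays were at 4.90, 5.16 and 5.25, those with CSE 1% at 5.30, 5.41 and 5.58, those with CSE 5% at 6.94, 7.14 and 7.16, and those with CSE 10% at 7.03, 7.04 and 7.22. All exposed arrays were above all controls, and those with CSE 5% and 10% overlapped each other. IL1A was 3.94-fold higher with CSE 5% (95% confidence interval 3.42 to 4.53, log2 change 1.98 with a standard error of 0.0988, adjusted p = 1.5e-14). With CSE 10% it was 3.99-fold higher (3.47 to 4.59, adjusted p = 4.1e-15), and with CSE 1% 1.25-fold higher (1.09 to 1.44, adjusted p = 0.049). This last call was lost without control replicate 1 (log2 change 0.23), control replicate 3 (0.36), CSE 1% replicate 1 (0.25) or CSE 1% replicate 3 (0.34). It was also lost in a fit of week 1 alone (adjusted p = 0.12), with array centring on housekeeping genes (0.11) and with trended and robust eBayes (0.051).

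At 3 weeks the IL1A level was 4.90, 4.92 and 5.03 on the control arrays, 5.49, 5.65 and 5.69 with CSE 1%, 6.76, 6.78 and 6.92 with CSE 5%, and 6.31, 6.35 and 6.42 with CSE 10%. No group overlapped another. The gene was 1.58-fold higher with CSE 1% (adjusted p = 2.1e-05), 3.65-fold with CSE 5% (1.7e-14) and 2.65-fold with CSE 10% (8.2e-12). At 5 weeks the control arrays were at 5.18, 5.27 and 5.35, and the exposed arrays at 5.64, 5.94 and 6.04 with CSE 1%, 7.10, 7.12 and 7.24 with CSE 5% and 6.95, 7.02 and 7.08 with CSE 10%. Every exposed array was again above every control. IL1A was 1.52-fold higher with CSE 1% (adjusted p = 2.5e-05), 3.68-fold with CSE 5% (7.4e-15) and 3.36-fold with CSE 10% (3.9e-14). IL1A was 0.32 higher (log2) in the 5-week controls than in those of 3 weeks (adjusted p = 0.0084), and with the earlier controls in their place the folds were 1.80, 4.36 and 3.98.

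CSF1, the macrophage growth factor, rose by less than IL1A did, from control arrays that lay close together. At 1 week these were at 7.54, 7.54 and 7.55, against 7.99, 8.06 and 8.26 with CSE 1%, 8.37, 8.47 and 8.50 with CSE 5%, and 8.23, 8.31 and 8.34 with CSE 10%. The exposed arrays were all above the controls. CSF1 was 1.48-fold higher with CSE 1% (95% confidence interval 1.30 to 1.68, adjusted p = 0.00011), 1.87-fold with CSE 5% (1.65 to 2.12, 1.5e-08) and 1.68-fold with CSE 10% (1.48 to 1.91, 2.5e-07).

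At 3 weeks the CSF1 level was 7.67, 7.69 and 7.76 on the control arrays, 7.77, 7.94 and 8.07 with CSE 1%, 8.70, 8.72 and 8.77 with CSE 5%, and 8.41, 8.50 and 8.51 with CSE 10%. The group with CSE 1% began just above the highest control, and its change did not pass the test (log2 change 0.22, confidence interval 0.04 to 0.41, adjusted p = 0.12); it passed without CSE 1% replicate 1 (0.30) and after centring on housekeeping genes (0.37, adjusted p = 0.0022). CSF1 was 2.03-fold higher with CSE 5% (adjusted p = 7.7e-10) and 1.70-fold with CSE 10% (1.4e-07). At 5 weeks the controls were at 7.87, 7.91 and 7.94, against 8.09, 8.43 and 8.54 with CSE 1%, 8.90, 9.02 and 9.11 with CSE 5%, and 8.60, 8.65 and 8.75 with CSE 10%. The 3 groups exposed for 5 weeks did not overlap each other or the controls. The folds were 1.36 (adjusted p = 0.00023), 2.15 (8.8e-11) and 1.69 (7.2e-08), and against the controls of weeks 1 and 3 they were 1.66, 2.61 and 2.06.

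IL1B, the secreted IL-1 cytokine, had smaller log2 changes than its neighbour IL1A, and not always in the same direction. At 1 week its level was 6.15, 6.20 and 6.20 on the control arrays, 5.88, 6.33 and 6.37 with CSE 5%, and 5.56, 5.74 and 5.86 with CSE 10%. CSE 5% arrays lay on both sides of the controls (log2 change 0.01, confidence interval -0.25 to 0.26, adjusted p = 0.98), while those with CSE 10% were all below them. IL1B fell by 0.46 (log2) with CSE 10% at 1 week (adjusted p = 0.0085), a call that was lost without CSE 10% replicate 2 (-0.39). At 3 weeks the controls were at 5.65, 5.65 and 5.66, below the arrays with CSE 5% (5.89, 6.01 and 6.26) and CSE 10% (5.80, 6.01 and 6.22), and IL1B was 0.40 and 0.36 higher (adjusted p = 0.022 and 0.033). In those controls IL1B was itself 0.53 lower than in the controls of 1 week (adjusted p = 0.0045). The CSE 5% call was lost without control replicate 1 (0.40), control replicate 2 (0.40) or CSE 5% replicate 2 (0.30), and the CSE 10% call without control replicate 1 (0.36), 2 (0.35) or 3 (0.36) or CSE 10% replicate 1 (0.36) or 3 (0.25).

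At 5 weeks the IL1B level was 5.83, 5.95 and 5.98 on the control arrays and 6.04, 6.31 and 6.35 with CSE 5%, which is 0.31 higher (log2, adjusted p = 0.031), and also 0.31 higher than the controls of weeks 1 and 3 (0.032), with which the exposed arrays overlapped. The first call was lost without control replicate 1 (0.27), CSE 5% replicate 1 (0.27) or CSE 5% replicate 2 (0.25), and with array weights (0.25, adjusted p = 0.14), which gave the 5-week controls weights from 0.178 to 0.914. Taken against all 9 controls as 1 group, IL1B passed at no time with CSE 5% or 10%. The log2 change was -0.20 with CSE 10% at 1 week (adjusted p = 0.29). At 3 weeks it was 0.13 with CSE 5% (0.40) and 0.09 with CSE 10% (0.60). With CSE 5% at 5 weeks it was 0.31 (0.066), the same size as beside the control of that week. The rise at 3 weeks with CSE 10% was also lost after cyclic loess (0.31, adjusted p = 0.077), after a second quantile normalization (0.28, 0.10) and with array weights (0.28, 0.071). In a fit of that week alone neither rise passed (0.053 and 0.065). With CSE 10% at 5 weeks IL1B was 0.22 higher and did not pass (0.12), but did after cyclic loess (0.44), a second quantile normalization (0.36) or centring on housekeeping genes (0.36). With CSE 1% the changes were between -0.17 and 0.22, and none passed, other than at 3 weeks after that centring (0.36, adjusted p = 0.042).

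LIF, a gp130 cytokine, passed the test against control at 3 weeks with CSE 1% and 5%. Its level was 7.67, 7.71 and 7.85 on the control arrays of 3 weeks, 8.37, 8.41 and 8.43 with CSE 1%, 8.06, 8.09 and 8.36 with CSE 5%, and 7.94, 7.97 and 7.97 with CSE 10%. All exposed arrays were above the controls, and the order of the groups ran from CSE 1% down to CSE 10%. Neither step between concentrations passed: -0.23 from CSE 1% to 5% (adjusted p = 0.40) and -0.21 from CSE 5% to 10% (0.58). LIF rose by 0.66 with CSE 1% (log2, confidence interval 0.36 to 0.95, adjusted p = 0.0019) and by 0.42 with CSE 5% (0.13 to 0.72, 0.034). The change of 0.21 with CSE 10% did not pass (-0.08 to 0.50, 0.31). The CSE 5% call was lost without control replicate 1 (0.41) or 3 (0.39) or CSE 5% replicate 2 (0.33) or 3 (0.47). It was also lost after a second quantile normalization (0.38, adjusted p = 0.052) and against all 9 controls (0.29, 0.098), and the CSE 10% change passed after centring on housekeeping genes (0.39, 0.030). In control cells LIF was 0.45 lower at 3 weeks than at 1 week (adjusted p = 0.037). At 1 and 5 weeks its changes against control ranged from 0.04 to 0.28 and did not pass, apart from 5 weeks with CSE 5% without replicate 3 of that group (0.43) or after that centring (0.38, adjusted p = 0.022). Compared with all 9 controls it was also higher with CSE 1% and 10% at 1 week (0.55 and 0.44, adjusted p = 0.019 and 0.022).

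IL11, a gp130 cytokine known for its part in fibrosis, was lower at 5 weeks. The control arrays were then at 7.18, 7.44 and 7.45, against 6.73, 6.91 and 7.02 with CSE 1%, 6.70, 6.76 and 6.89 with CSE 5%, and 6.69, 6.71 and 6.85 with CSE 10%. All 9 exposed arrays were below the controls, and IL11 fell by 0.47, 0.57 and 0.61 (log2, adjusted p = 0.00082, 5.4e-05 and 2.9e-05). The 5-week controls were 0.38 higher than the 3-week controls (adjusted p = 0.0040), which were at 6.86, 7.03 and 7.03. With the controls of weeks 1 and 3 the IL11 changes were -0.09, -0.19 and -0.22 (log2), and none passed (adjusted p = 0.62, 0.13 and 0.070). All arrays with CSE 10% lay below those controls. Against all 9 controls the IL11 changes were -0.32 with CSE 5% and -0.35 with CSE 10%, which passed (adjusted p = 0.029 and 0.016), and -0.21 with CSE 1%, which did not (0.23). At 3 weeks IL11 fell by 0.35 with CSE 10% (adjusted p = 0.016), where the arrays spread over 6.32, 6.64 and 6.92 and overlapped the controls; the call was lost without control replicate 2 (-0.32) or 3 (-0.32) or CSE 10% replicate 3 (-0.19), in a fit of the 3-week arrays only (adjusted p = 0.064) and after centring on housekeeping genes (-0.17, adjusted p = 0.22). With CSE 5% at 3 weeks, at 6.64, 6.70 and 6.73, all arrays were below the controls, but the change of -0.28 did not pass (adjusted p = 0.062); it did without control replicate 1 (-0.34), against all 9 controls (-0.41, adjusted p = 0.0042), with array weights (-0.27, 0.037) and with only the brightest 60% of clusters tested (-0.28, 0.041). At 1 week no IL11 change passed, with values from -0.03 to 0.15.

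IL18, an epithelial cytokine of the inflammasome, was level in exposed cells and low in the controls of 5 weeks. Those controls were at 8.32, 8.89 and 9.17, against 9.66, 9.94 and 10.11 with CSE 1%, 9.31, 9.90 and 10.07 with CSE 5%, and 10.00, 10.02 and 10.24 with CSE 10%. IL18 was accordingly 2.16-fold, 1.96-fold and 2.45-fold higher than control (adjusted p = 6.1e-05, 0.00015 and 3.7e-06). The controls of 1 week were at 9.98, 10.16 and 10.29 and those of 3 weeks at 9.52, 9.91 and 10.17, in the range of the exposed arrays. The control level fell by 1.07 between 3 and 5 weeks (log2, adjusted p = 7.4e-05). With the controls of weeks 1 and 3, the IL18 changes at 5 weeks were -0.10, -0.24 and 0.08, and none passed (adjusted p = 0.77, 0.32 and 0.76). Their confidence intervals reached from -0.45 to 0.25, from -0.59 to 0.10 and from -0.27 to 0.43. At 1 and 3 weeks the changes ranged from -0.28 to 0.01 and did not pass.

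IL6, the gp130 cytokine of the acute phase, did not differ detectably from control. Its 36 arrays lay between 4.39 and 4.93, its group means spanned 0.21, and its changes against control ranged from -0.14 to 0.04. The widest confidence bounds of these changes were -0.34 and 0.25. IL33, the nuclear alarm signal, lay between 3.66 and 4.16, with group means spanning 0.32. With CSE 1% at 5 weeks it was at 4.09, 4.11 and 4.16, just above the highest control of 4.05, and the change of 0.19 did not pass (adjusted p = 0.065). It passed without control replicate 1 (0.25), after cyclic loess (0.40), after a second quantile normalization (0.35) and after centring on housekeeping genes (0.27). Its difference from the effect at 1 week, 0.22 (adjusted p = 0.18), passed in the same 3 settings, at 0.41, 0.38 and 0.35. IL6, IL33, IL1A and IL1B were not among the brightest 60% of clusters, where a change in RNA gives a smaller change in signal. IL11, IL18, LIF and CSF1 were.

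The next question was whether the responses depended on concentration. From CSE 1% to 5%, IL1A rose by 1.65, 1.21 and 1.28 (log2) at 1, 3 and 5 weeks (adjusted p = 1.2e-12, 2.0e-09 and 6.5e-10). CSF1 rose by 0.34, 0.80 and 0.66 (adjusted p = 0.014, 7.6e-07 and 1.8e-05). No other measured gene passed this step, so that 2 of 8 did at each time, where 6.73%, 5.51% and 3.54% of all clusters were called. In other settings IL11 passed at 3 weeks with array weights (-0.30, adjusted p = 0.049), and IL1B passed at 5 weeks, as given below. The CSF1 call at 1 week was lost without CSE 1% replicate 1 (0.28) or 3 (0.32) or CSE 5% replicate 1 (0.33) or 2 (0.32). From CSE 5% to 10% no gene rose. IL1B fell by 0.47 at 1 week (adjusted p = 0.030), IL1A by 0.46 at 3 weeks (0.013) and CSF1 by 0.34 at 5 weeks (0.036), 1 gene at each time, where 3.27%, 0.967% and 2.22% of all clusters were called. IL1A changed by 0.02 and -0.13 from CSE 5% to 10% at 1 and 5 weeks, with intervals of -0.18 to 0.22 and -0.33 to 0.07. CSF1 changed by -0.15 and -0.26 at 1 and 3 weeks and did not pass (adjusted p = 0.51 and 0.21). At each of the 3 times all CSF1 arrays with CSE 10% lay below those with CSE 5%.

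The 3 calls from CSE 5% to 10% were not robust to leaving out single arrays. That of IL1B was lost without CSE 10% replicate 2 (-0.39) or 3 (-0.48) or CSE 5% replicate 1 (-0.38) or 3 (-0.41), and in a fit of week 1 alone (adjusted p = 0.063). For IL1A the call was lost without CSE 10% replicate 1 (-0.46) or 3 (-0.44) or CSE 5% replicate 2 (-0.41), and for CSF1 without CSE 10% replicate 1 (-0.33) or 2 (-0.31) or CSE 5% replicate 1 (-0.29) or 3 (-0.34). The CSF1 call was also lost in a fit of week 5 alone (0.35) and after a second quantile normalization (-0.30, 0.093). IL1B at 5 weeks was 0.40 higher with CSE 5% than with CSE 1%, with arrays that did not overlap, and did not pass (adjusted p = 0.075). It passed without CSE 5% replicate 3 (0.50), with centring on housekeeping genes (0.43) and with array weights (0.45).

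Whether the effect of exposure differed between times was tested as a difference of differences. From 1 to 5 weeks the effect on IL18 and IL11 differed at every concentration, by 1.06 to 1.39 and by -0.75 to -0.51 (log2), and that on IL1B with CSE 10% differed by 0.69 (adjusted p = 0.0046). This made 2, 2 and 3 of 8 genes with CSE 1%, 5% and 10%, where 21.0%, 30.7% and 29.6% of all clusters were called. These counts are near the background. From 1 to 3 weeks only CSE 10% gave calls, with 3 genes: IL1A (-0.59, adjusted p = 0.0060), IL11 (-0.50, 0.036) and IL1B (0.82, 0.0025). For CSE 1%, 5% and 10% in turn, 4.90%, 3.23% and 9.13% of all clusters were called there. The IL11 call between 1 and 5 weeks with CSE 1% was lost without control replicate 1 of 1 week (-0.47) or of 5 weeks (-0.47) or CSE 1% replicate 2 of 5 weeks (-0.43), and after centring on housekeeping genes (-0.38, adjusted p = 0.082). The IL11 call with CSE 10% between 1 and 3 weeks was lost without control replicate 1 (-0.46) or 2 (-0.46) of 1 week, control replicate 2 (-0.47) or 3 (-0.47) of 3 weeks, CSE 10% replicate 1 (-0.46) or 2 (-0.51) of 1 week, or CSE 10% replicate 2 (-0.50) or 3 (-0.34) of 3 weeks, and after that centring (-0.39, adjusted p = 0.11). The effect of CSE 1% on IL1A changed by 0.27 from 1 to 5 weeks and did not pass (adjusted p = 0.16). It passed without CSE 1% replicate 1 of 5 weeks (0.39), after a second quantile normalization (0.42), with centring on housekeeping genes (0.40) and with array weights (0.44). From 1 to 3 weeks it changed by 0.33 (0.21), and passed with that centring (0.52) and with array weights (0.41). With all 9 controls as 1 group the controls cancel in this difference, which is then the change of exposed cells alone. Between 1 and 5 weeks that change passed for IL1A with CSE 1% (0.44) and for LIF with CSE 1% (-0.63) and CSE 10% (-0.54). Beside the control of each week the LIF differences were -0.14 and -0.05. The control level of LIF was 8.20 at 1 week and 7.70 at 5 weeks (group means). The effect of CSE 5% on IL1A did not differ detectably between times: it changed by -0.11 from 1 to 3 weeks and by -0.10 from 1 to 5 weeks, with intervals of -0.39 to 0.18 and -0.38 to 0.19. That on CSF1 changed by 0.12 and 0.20 (-0.14 to 0.38 and -0.06 to 0.46) and did not pass. With all 9 controls as 1 group, CSF1 in exposed cells alone rose between 1 and 5 weeks. The rise was 0.56 with CSE 5% (adjusted p = 0.0010) and 0.37 with CSE 10% (0.032). Beside the control of each week the difference with CSE 10% was 0.01 (0.96).

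In control cells between 1 and 3 weeks, IL1B and LIF fell and no other measured gene passed. Between 3 and 5 weeks IL1A and IL11 were higher and IL18 lower, as given above. The CSF1 control level was 7.54, 7.71 and 7.91 at the 3 times (group means), and the steps of 0.16 and 0.20 did not pass (adjusted p = 0.28 and 0.058).

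IL1A is the first of 9 genes of the IL-1 cluster on chromosome 2, which lie in the order IL1A, IL1B, IL37, IL36G, IL36A, IL36B, IL36RN, IL1F10 and IL1RN in RefSeq. All 9 were measured. With CSE 5% at 1 week IL1A alone passed the test (log2 change 1.98), and the other 8 lay between -0.32 (IL37) and 0.04 (IL36G). At 3 weeks IL1A (1.87) and IL1B (0.40) passed, and the other 7 lay between -0.23 (IL36A) and 0.15 (IL36G). At 5 weeks IL1A (1.88) and IL1B (0.31) were higher and 5 were lower: IL37 (-0.33), IL36G (-0.35), IL36B (-0.55), IL36RN (-0.40) and IL1RN (-0.31), the last of which codes for the IL-1 receptor antagonist. With the controls of weeks 1 and 3 none of these 5 passed, with changes from -0.22 (IL1RN) to 0.01 (IL37), while IL1A (2.12) and IL1B (0.31) did. In the 5-week controls IL37, IL36G, IL36B and IL36RN were 0.40, 0.32, 0.46 and 0.31 higher than in those of 3 weeks.

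**Figure D3:**
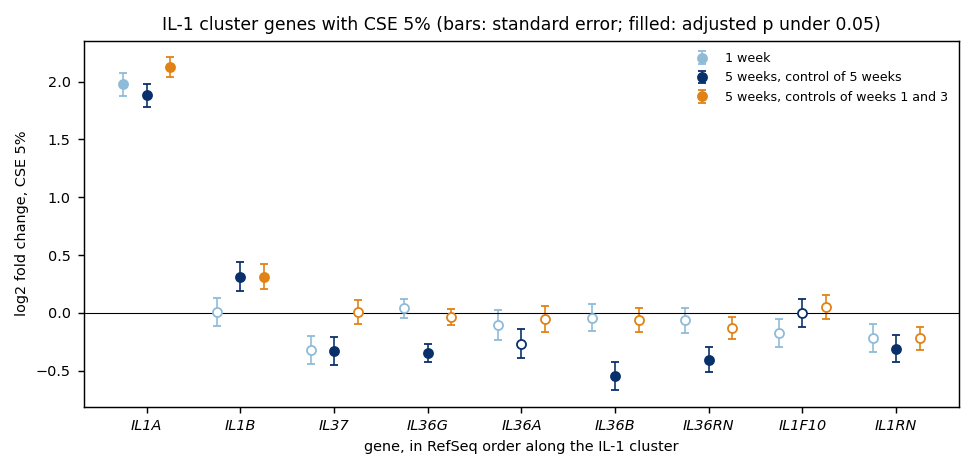
log2 fold change with CSE 5% of 9 genes in their RefSeq order along the IL-1 cluster, at 1 week, at 5 weeks beside the 5-week control and at 5 weeks beside the earlier controls. Bars are standard errors, and filled points passed the test. IL1A stands near 2 in all 3 comparisons, and the lower values of IL37 to IL1RN with the 5-week control include 5 filled points, with the other controls none.

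Receptors, adaptors and other partners of these cytokines were read from lists fixed by name, with CSE 5% as the reference concentration. Of all clusters 5.99% were higher and 4.84% lower at 1 week. The shares were 9.70% and 9.93% at 3 weeks and 23.0% and 40.3% at 5 weeks. With the controls of weeks 1 and 3 these shares were 13.1% and 13.0%. Centring the arrays on 18 housekeeping genes raised the median change by 0.08, 0.16 and 0.11 at 1, 3 and 5 weeks and by 0.13 with the earlier controls. The shares of higher and lower clusters were then 9.50% and 3.09%, 20.1% and 4.47%, 26.8% and 27.5%, and 24.7% and 6.02%. Cyclic loess raised the median by 0.14 at 5 weeks, with shares of 25.6% and 27.7%. Among 13 measured IL-1 family receptors and adaptors, 4 were higher and 1 lower at 1 week, 5 and 1 at 3 weeks, 6 and 5 at 5 weeks, and 5 and 1 against the other controls. The median log2 change of the list was 0.16 at 1 week and 0.11 at 5 weeks, beside -0.03 and -0.17 over all clusters. IRAK2, a kinase that carries the IL-1 signal, rose by 1.95 at 1 week (adjusted p = 9.9e-14), and by 2.17 at 5 weeks or 1.91 against the other controls. IL1R1, the signalling receptor for IL1A and IL1B, rose by 0.61 at 1 week (adjusted p = 0.0057) and by 1.86 at 5 weeks or 0.90 against the other controls. IL1R2, the decoy receptor that takes up IL-1 without a signal, fell by 0.89 at 1 week (adjusted p = 3.4e-11), by 0.76 at 5 weeks and by 1.09 against the other controls. The other genes of this list that passed at 1 week, named after their values were seen, were TRAF6, a ubiquitin ligase of the same signal (0.64, adjusted p = 1.6e-06), and IL1RAP, the accessory chain of the receptor (0.43, 0.041).

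In the gp130 pathway, 5 of 14 measured receptors and signalling genes were higher at 1 week, 6 at 3 weeks and 7 at 5 weeks, and 6 against the controls of weeks 1 and 3. None was lower except for 5 at 5 weeks with the control of that week. IL6ST, the gp130 chain itself, rose by 0.93 at 1 week (adjusted p = 0.021), and by 2.55 at 5 weeks or 1.17 against the other controls. JAK1, a kinase bound to gp130, rose by 0.67, 0.87 and 0.44 in the same comparisons, and OSMR, the oncostatin M receptor, by 0.35, 0.76 and 0.25. Thus receptor genes of this pathway rose in cells in which IL6 did not pass the test at any time. Of the 3 gp130 ligands measured beside IL6, IL11 and LIF, only CTF1 (cardiotrophin) passed, with a change of -0.26 at 5 weeks (adjusted p = 0.033) and -0.06 against the other controls (0.67).

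Of the 8 other colony-stimulating factor and receptor genes, 1 was higher and 1 lower at 1 week, with the same counts at 3 weeks, 1 and 4 at 5 weeks, and 0 and 1 against the controls of weeks 1 and 3. At 1 week these were CSF2RA, the specific receptor chain for CSF2 (0.41, adjusted p = 0.014), and KITLG, the ligand of the KIT receptor (-0.61, 0.038), both named after their values were seen. KITLG was also the lower one with the earlier controls (-0.51, 0.022). CSF2RB, the shared receptor chain for CSF2, changed by -0.42 at 5 weeks (adjusted p = 0.0011) and by -0.02 against the other controls (0.92). IL34, the second ligand of the CSF1 receptor, changed by -0.42 (0.00043) and -0.16 (0.15), and FLT3LG, a growth factor of blood progenitors, by -0.38 (0.00091) and -0.05 (0.72). Among 27 measured other interleukins, 1 was higher and 1 lower at 1 week. The counts were 1 and 2 at 3 weeks and 2 and 18 at 5 weeks. Beside the earlier controls they were 2 and 1, and the median moved from -0.33 to -0.06. IL17A and IL23A, cytokines of lymphoid and myeloid cells, changed by -0.89 and -0.71 at 5 weeks with the control of that week (adjusted p = 3.8e-07 and 9.8e-06) and by -0.21 and -0.10 with the others (0.13 and 0.51). IL32 was higher in each comparison, by 0.64 at 1 week (adjusted p = 0.00023), by 1.23 at 5 weeks and by 1.55 against the other controls. IL12A, named after its values were seen, was lower by 0.41 at 1 week (log2 change -0.41, adjusted p = 0.018) and changed by -0.50 against the other controls (0.00041).

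**Figure D4:**
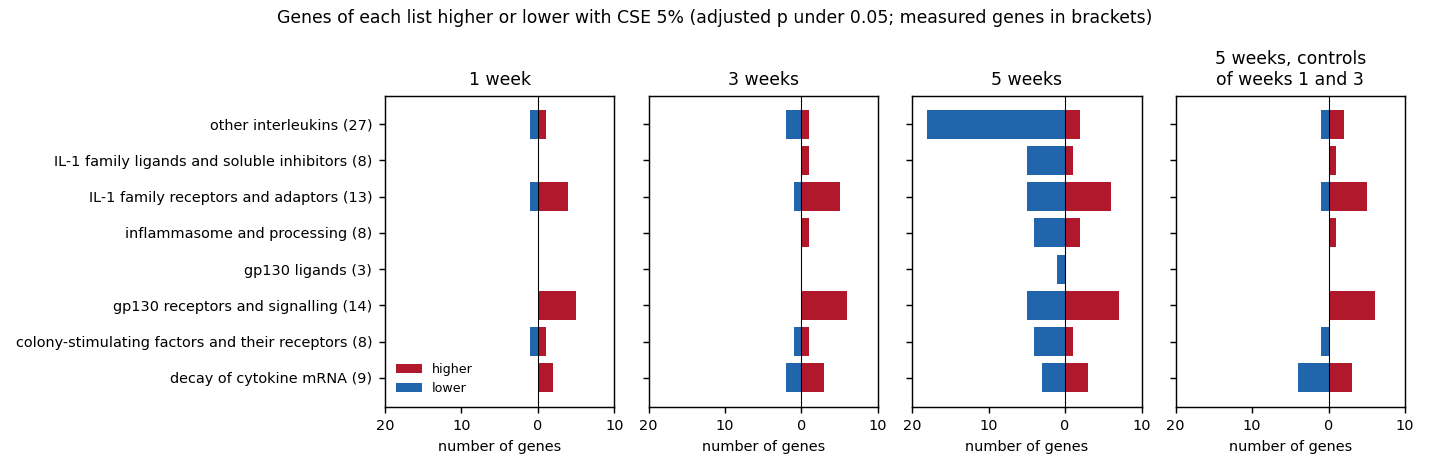
Number of genes higher (red) and lower (blue) with CSE 5% in 8 lists of cytokine, receptor and regulator genes, by week, each beside its own control, and at 5 weeks beside the controls of weeks 1 and 3. Numbers of measured genes are in brackets. The blue bar of 18 other interleukins at 5 weeks is 1 with the other controls, while the red bars of the IL-1 and gp130 receptor lists are at 5 and 6.

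Of 8 measured IL-1 family ligands and inhibitors, none passed at 1 week and 1 was higher at 3 weeks. At 5 weeks 1 was higher and 5 were lower, and 1 and 0 with the other controls. The higher one at 5 weeks was IL18BP, the soluble inhibitor of IL18, with changes of 0.39 (adjusted p = 2.0e-04) and 0.46 (1.1e-05), compared with 0.08 at 1 week (0.59). Of 8 inflammasome and processing genes, none passed at 1 week, 1 was higher at 3 weeks, 2 were higher and 4 lower at 5 weeks, and 1 was higher against the other controls. That was PYCARD, the inflammasome adaptor, with a change of 0.63 at 5 weeks (adjusted p = 4.4e-05) and 0.81 against the other controls (3.2e-07). CASP4, an inflammatory caspase, changed by 0.60 and -0.05, and AIM2, a DNA sensor, by -0.54 and -0.06, in that order. Of 9 genes for the decay of cytokine messages, 2 were higher and none lower at 1 week, and 3 and 2 at 3 weeks. The counts were 3 and 3 at 5 weeks, and 3 and 4 against the other controls. ZFP36L1 rose by 1.01 at 1 week (adjusted p = 3.4e-12), by 1.43 at 5 weeks and by 1.00 against the other controls. ZFP36, its relative that acts on cytokine messages, changed by -0.11 at 1 week (0.64), by -1.29 at 5 weeks (1.9e-09) and by -0.89 against the other controls (1.7e-07). TIA1, which holds back translation, rose by 2.08 at 5 weeks and by 0.89 against the other controls.

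Genes of like pattern were sought for IL1A, IL18 and CSF1, whose 12 group means spanned at least 1 log2 unit. For each, the 3 genes with the highest Pearson correlation of group means were taken from 4273 others that spanned as much. Such correlations share the control arrays and were selected as the highest, so they are a description. For IL1A the nearest were IRAK2 (r = 0.97), COXFA4L3 (0.97) and PLA2G4C (0.96, a phospholipase), which changed by 1.95, 1.50 and 1.31 with CSE 5% at 1 week. For CSF1 they were CXCL1 (0.98, a chemokine for neutrophils), TNFAIP3 (0.96, an inhibitor of NF-kB signalling) and OXCT1 (0.96, an enzyme of ketone body use). These changed by 1.10, 1.36 and 0.54 at 1 week and by 1.85, 2.33 and 0.71 at 5 weeks. For IL18 they were DPH6 (0.96), DCTN4 (0.95) and FCF1 (0.95), which were 0.81, 0.65 and 0.89 lower in the 5-week controls than in those of 3 weeks, and whose changes with CSE 5% at 1 week were 0.00, 0.16 and 0.18. Among the measured genes themselves, IL1A and CSF1 had the highest correlation (r = 0.88 over 12 group means), and IL1A and IL1B had one of 0.39.

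**Figure D5:**
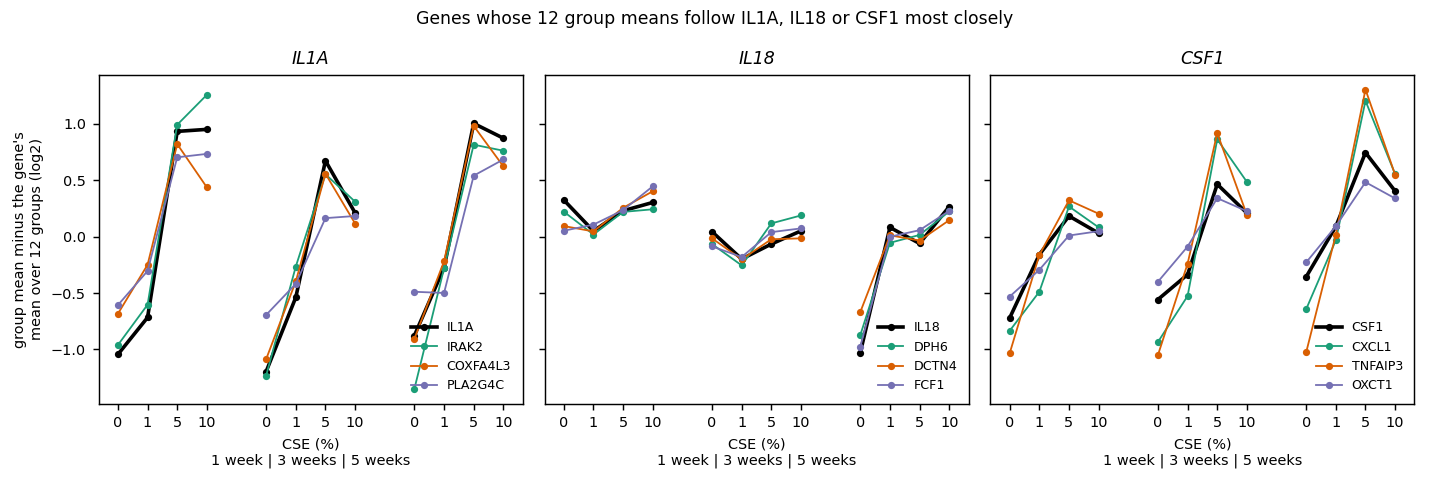
Group means of IL1A, IL18 and CSF1 (black) and of the 3 genes nearest to each (colours), as log2 difference from each gene's mean over 12 groups, by CSE concentration and week. IL1A and CSF1 and their nearest genes climb from control to CSE 5% at all 3 times, and IL18 and its nearest genes are lowest in the control of 5 weeks.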

How the data were processed

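Gene expression in A549 cells was read from 36 arrays (Affymetrix Human Gene 1.0 ST), with 3 in each of the 12 groups. The authors corrected and normalized the probe signals with RMA, summarised them per transcript cluster and deposited log2 values, which ranged from 2.29 to 14.5. Tools named in the submitters' processing notes are limma, RMA and R 2.11.0. For the array annotation, the genome build was not given in the sources used here. Since RMA brings arrays towards like distributions, a shift of most genes in the same direction can be reduced or hidden. The deposited arrays were not fully alike, with medians from 6.72 to 6.91 and standard deviations from 2.15 to 2.31. Some shift was still seen, in the median change of all clusters at the latest time. The number of arrays limits the precision. The deposited values were used with no further normalization or filter. The platform annotation gave 19460 clusters 1 symbol, 1754 several and 12083 none.

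A model with a mean per group was fitted to all 36 arrays with limma 3.58.1 in R 4.3.3 (24 residual and 3.91 prior degrees of freedom), and p-values were adjusted with the Benjamini-Hochberg method over 33297 clusters, with a threshold of 0.05. It was tested on simulated data. The study's rule (log2 fold change beyond 1, B above 0, prior proportion 0.01) was counted beside it. The alternatives were other fits, normalizations, centring, weights, control sets and leaving out each array.

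The members and lists were chosen with earlier results of these data known. All 8 measured members are named, and up to 3 genes of each list with the smallest p for CSE 5% at 5 weeks among those that passed. For members whose group means spanned 1 or more, the 3 genes of most like pattern are named too.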

Additional observations from a re-analysis of the deposited data

Results flagged for a closer look

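The effect of exposure on 4 of the measured genes differed between times by limma's test of the difference of differences (log2, later minus 1 week), in 10 cases. At 5 weeks 2, 2 and 3 of the 8 genes were called with CSE 1%, 5% and 10%. Of all clusters 21.0%, 30.7% and 29.6% were called there, so these counts are near the background. At 3 weeks the shares were 4.90%, 3.23% and 9.13%. For IL18 the effect at 5 weeks was higher by 1.39 with CSE 1% (adjusted p = 0.0010), by 1.06 with CSE 5% (0.0058) and by 1.32 with CSE 10% (0.00097). The IL18 control level at 5 weeks was 1.07 below that at 3 weeks. For IL11 the effect at 5 weeks was -0.51 with CSE 1% (0.018), -0.54 with CSE 5% (0.0087) and -0.75 with CSE 10% (0.00059), and the control level was 0.38 above that at 3 weeks. IL11 with CSE 10% also differed at 3 weeks, by -0.50 (0.036), a call that was lost without any of 8 of the 12 arrays, with values from -0.64 to -0.34 over all 12. The part of the 5-week control arrays in these differences was not tested. With all 9 controls as 1 group the controls cancel, which leaves the change of exposed cells between 1 and 5 weeks. That change was 0.03, -0.29 and -0.04 for IL18 and -0.13, -0.16 and -0.37 for IL11, and none passed.

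For IL1B with CSE 10% the effect at 3 weeks was 0.82 above that at 1 week (adjusted p = 0.0025) and at 5 weeks 0.69 above it (0.0046). The IL1B control level fell by 0.53 from 1 to 3 weeks. With all controls as 1 group, the changes of IL1B in exposed cells alone were 0.29 and 0.42 and did not pass (adjusted p = 0.25 and 0.097). For IL1A with CSE 10% the effect at 3 weeks was -0.59 against that at 1 week (0.0060), and both effects were increases over control, of 2.00 at 1 week and 1.41 at 3 weeks.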

How the results depend on the processing

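Counts of changed genes (of 8) are given in the order CSE 1%, 5%, 10%. With the controls of weeks 1 and 3 the counts at 5 weeks were 2, 3 and 2, and IL18 turned to -0.1023 and -0.2447 with CSE 1% and 5%. With all 9 controls as 1 group they were 2 and 3 with CSE 1% and 5%. The controls then cancel in the difference between 5 weeks and 1 week, which is the change of exposed cells alone. There the count with CSE 5% was 1, and IL18 was at -0.2903 (CSE 5%) and -0.0366 (CSE 10%). Under the rule of log2 fold change beyond 1 and B above 0 the counts were 0, 1 and 1 after 1 week, then 0, 2 and 1, and 1, 2 and 2 after 5 weeks. By that rule 1 gene passed from CSE 1% to 5% at each time and 0 from CSE 5% to 10%, and 1, 0 and 1 in effect between 5 weeks and 1 week and 0 between 3 weeks and 1 week. A fit per week gave 1 gene for CSE 1% at 1 week, 2 for CSE 10% at 3 weeks and 0 from CSE 5% to 10% at 1 and 5 weeks. Trended and robust eBayes gave 1 for CSE 1% at 1 week, and array weights 1 for the difference of effects of CSE 1% between 3 weeks and 1 week. Centring on 18 housekeeping genes gave 1 and 4 for CSE 1% at 1 and 3 weeks and 3 for that difference of effects. A second quantile normalization gave 0 from CSE 5% to 10% at 5 weeks and 4 for the effect of CSE 1% between 5 weeks and 1 week. After cyclic loess IL33 with CSE 5% at 5 weeks turned to 0.21 (adjusted p = 0.029); no count moved by over 1.5 times.

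With the replicate number as a block, 167 of 168 gene values kept their call, and the count for CSE 1% at 1 week was 1 (IL1A, adjusted p = 0.056). Deviations of exposed and control arrays with the same number correlated from -0.208 to 0.504, over 0.1 in 6 of 27 pairs, so the numbers were not taken to pair the arrays. Leaving out 1 array gave 1 to 2 genes for CSE 1% at 1 week, 2 to 4 for CSE 5% and for CSE 10% at 3 weeks, 1 to 2 from CSE 1% to 5% at 1 week, 0 to 1 from CSE 5% to 10% at 1, 3 and 5 weeks and 1 to 3 for the effect of CSE 1% between 5 weeks and 1 week. Among the brightest 60% of clusters 83 of 84 values of IL11, IL18, LIF and CSF1 kept their call; no count was formed there, since the other 4 genes have no value. A mean of a gene's clusters was not run, since each gene had 1. By the study's rule CSF1 with CSE 5% was not called at 1 week (log2 change 0.90). Under every other alternative that gave them a value, IL1A with CSE 5% and 10% and CSF1 with CSE 5% kept their rise against control. Dim probes can limit what is seen of IL6, IL33, IL1B and IL1A, and their part in these results was not tested.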
